A study of Mus musculus with 40 samples.

Results

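The genes described here are 9 members of the serpin family of protease inhibitors in mouse macrophages: Serpinb1a, Serpinb6a, Serpinb6b, Serpinb8, Serpinb9, Serpinb9b, Serpina3f, Serpina3g and Serping1. They were given as a list of symbols and matched to the Ensembl identifiers of the count table, 9 of 57010 identifiers, and 59 further genes of the table carry a serpin symbol. The list was chosen by measured CPM levels over the 5 times and 2 genotypes, with Serpinb9b and Serpinb1a named as higher in the knock-out cells. The differences between genotypes are therefore descriptions without a test, and the tests concern the change over time within each genotype. Primary macrophages were grown from bone marrow with L929-conditioned medium, which supplies the growth factor M-CSF, either from OtulinFL/FL mice (WT) or from OtulinFL/FL LysMCreTg/WT mice (KO), whose Cre is driven by the LysM promoter of the myeloid lineage. Both genotypes carried the floxed Otulin alleles, and no group carried Cre without them, so the loss of Otulin and the presence of Cre cannot be told apart. Cells were collected without LPS (0 h) or after 3, 6, 12 and 24 h of 500 ng/ml LPS from Salmonella minnesota, with 4 libraries in each of the 10 groups. Age, sex and strain of the mice are not stated in the labels used here. Otulin encodes the deubiquitinase that takes apart linear ubiquitin chains.

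Serpins inhibit proteases by presenting a reactive loop as bait: the protease cleaves the loop, stays covalently bound, and is carried to the far end of the inhibitor in a deformed, inactive state. The serpins of clade B (Serpinb genes) lack a classical secretion signal and act mainly inside cells, where they guard the cytosol against granule and lysosomal proteases released into it. Serpinb1a inhibits the serine proteases of neutrophil granules, Serpinb6a inhibits cathepsin G and trypsin-like proteases, Serpinb8 is an inhibitor of the proprotein convertase furin, and Serpinb9 inhibits granzyme B. Serpinb6b and Serpinb9b are mouse paralogs of Serpinb6a and Serpinb9. Serpina3f and Serpina3g belong to the mouse expansion of the antichymotrypsin gene, and Serpina3g, also known as Spi2A, inhibits cysteine cathepsins in the cytosol. Serping1 encodes the C1 inhibitor, a secreted protein that blocks C1r, C1s, the MASP proteases, plasma kallikrein and factor XII. Lipopolysaccharide is sensed by TLR4 and starts NF-kB signalling and a later wave of interferon-driven transcription.

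The promoters of 5 of the genes are printed because they carry, or lack, the letter patterns of the transcription factors that LPS and interferons are known to use, and because the genes that rose from almost no counts and the genes that fell can be compared in them. Each sequence is the 250 bases before the annotated start in RefSeq on GRCm38.p6, which is not the build of the count table, read 5′ to 3′ on the strand of the gene. Capitals mark matches on either strand to the interferon-stimulated response element core GAAANNGAA, the gamma-activated sequence TTCNNNGAA, an NF-kB pattern GGGNNNTTC and the PU.1 core GAGGAA. Serpina3f lies on the plus strand at chr12:104214294-104214543, Serpina3g on the plus strand at chr12:104235897-104236146, Serpinb9 on the plus strand at chr13:33004291-33004540, Serpinb9b on the plus strand at chr13:33027164-33027413 and Serpinb6a on the minus strand at chr13:34002795-34003044.
Serpina3f: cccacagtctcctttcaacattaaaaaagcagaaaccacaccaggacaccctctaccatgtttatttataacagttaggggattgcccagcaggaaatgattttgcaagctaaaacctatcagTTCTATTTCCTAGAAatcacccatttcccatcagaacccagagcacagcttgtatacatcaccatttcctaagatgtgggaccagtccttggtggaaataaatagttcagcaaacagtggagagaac
Serpina3g: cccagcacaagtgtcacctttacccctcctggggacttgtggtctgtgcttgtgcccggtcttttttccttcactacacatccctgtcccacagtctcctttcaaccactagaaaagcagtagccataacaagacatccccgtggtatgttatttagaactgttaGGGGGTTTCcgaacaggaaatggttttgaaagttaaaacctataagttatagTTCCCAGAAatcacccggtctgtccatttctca
Serpinb9: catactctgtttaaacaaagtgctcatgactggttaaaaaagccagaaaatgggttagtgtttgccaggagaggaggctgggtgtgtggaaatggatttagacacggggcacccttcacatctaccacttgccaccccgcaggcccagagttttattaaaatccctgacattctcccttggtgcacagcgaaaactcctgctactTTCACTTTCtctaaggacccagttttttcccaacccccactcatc
Serpinb9b: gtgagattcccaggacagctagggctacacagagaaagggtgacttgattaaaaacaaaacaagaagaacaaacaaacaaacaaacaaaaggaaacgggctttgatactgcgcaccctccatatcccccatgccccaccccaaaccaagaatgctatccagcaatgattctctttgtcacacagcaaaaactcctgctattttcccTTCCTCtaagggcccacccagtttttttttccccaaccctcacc
Serpinb6a: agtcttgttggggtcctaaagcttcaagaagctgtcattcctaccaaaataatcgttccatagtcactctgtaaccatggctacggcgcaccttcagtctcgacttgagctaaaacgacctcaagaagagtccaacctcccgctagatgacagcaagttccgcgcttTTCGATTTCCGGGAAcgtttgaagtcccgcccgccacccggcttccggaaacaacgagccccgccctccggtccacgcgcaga
In Serpina3f the interferon-stimulated core at -127 to -119 and the gamma-activated pattern at -121 to -113 overlap, and the same overlapping pair of patterns stands at -83 to -75 and -77 to -69 in Serpinb6a. Serpina3g held an NF-kB pattern at -85 to -77 and a gamma-activated pattern at -33 to -25. Serpinb9 held the interferon-stimulated core at -45 to -37, and Serpinb9b held only the PU.1 core, at -44 to -39. RefSeq gave a window for 7 of the 9 genes, Serpinb1a and Serping1 being the ones without. Of these 7 genes, 3 held the interferon-stimulated core (7.13% of 32851 RefSeq windows did), 3 the gamma-activated pattern (7.02%), 1 the NF-kB pattern (11.8%) and 2 the PU.1 core (23.3%), the second being Serpinb6b. The printed window of Serpinb6a is that of the first of its 2 listed starts, and the other start held none of the 4 patterns. In the window of Serpinb8 no match was found. These are matches of letters and not measured binding sites.

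The paralogs also resembled each other in these windows. The best local alignment of Serpina3f and Serpina3g covered 147 positions, of which 81.0% were identical, from -250 to -106 in Serpina3f and from -163 to -18 in Serpina3g, so that the gamma-activated patterns of the 2 genes fall in the shared stretch. Serpinb9 and Serpinb9b aligned over 166 positions with 70.5% identical, a stretch that includes the interferon-stimulated core of Serpinb9 and the PU.1 core of Serpinb9b. These pairs scored 88 and 53 (match 1, mismatch -1, gap -2), and the other 19 pairs of windows scored at most 19. In the order of protein-coding genes of the GENCODE annotation Serpina3f and Serpina3g are neighbours on chromosome 12, between Serpina3c and Serpina3i. Serpinb6b, Serpinb9 and Serpinb9b follow each other on chromosome 13 in a run that Serpinb1c precedes and Serpinb1b follows. Serpinb8 lies on chromosome 1 beside Serpinb2, and Serping1 on chromosome 2 beside Ube2l6.

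RNA was read as tags from the 3′ end of polyadenylated transcripts, so a transcript is counted once whatever its length. Values are in CPM, the count relative to the library total after TMM scaling over the 40 libraries. The totals ran from 3615155 to 6829303 counts. The labels call the replicates biological without saying how they were obtained. Scaling matters for the changes over time: without TMM, on library totals alone, the median of all genes shifted by -0.30 to -0.55 (log2) in the comparisons with 0 h, and 20.1% to 31.6% of the called genes were higher in place of 44.4% to 49.8%. Between genotypes this shift was at most -0.07. Macrophage markers (8 genes, Adgre1, Csf1r and Cd68 among them) summed to 2907 to 4732 CPM in every library. Neutrophil markers (10 genes) summed to 28.7 to 85.8 CPM in WT and 16.4 to 59.4 CPM in KO libraries. Natural killer and T cell markers (7 genes, Gzma, Gzmb and Prf1 among them) summed to at most 2.49 CPM, and mast cell markers (5 genes) to at most 0.456 CPM. The neutrophil-defining gene Ly6g had 0 counts in WT, and Mcpt4 and Tpsb2 had 0 counts in both genotypes. Otulin tags were at 27.6 to 51.7 CPM in KO libraries and 27.6 to 47.5 CPM in WT libraries. KO minus WT was -0.21 ± 0.11, -0.41 ± 0.10, -0.29 ± 0.11, -0.01 ± 0.12 and 0.59 ± 0.11 (log2) over the 5 times, called at none by edgeR (adjusted p from 0.0564 at 3 h to 0.989 at 12 h, and 0.0704 at 24 h). From 0 to 24 h Otulin rose in KO (0.44 ± 0.11, adjusted p = 0.00104) and fell in WT (-0.36 ± 0.10, adjusted p = 0.00334). Whether the tag lies in the deleted part is not stated, so these values do not check the labels. Lyz2, the gene whose promoter drives Cre, had KO libraries at 1591 to 2538 CPM and WT libraries at 2279 to 3605 CPM. In the libraries numbered KO 3 and WT 4, Xist stayed at or below 2.24 CPM and Ddx3y was at least 120.5 CPM at all 5 times, the reverse of the other libraries, so each genotype held 1 male replicate.

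**Figure D1:**
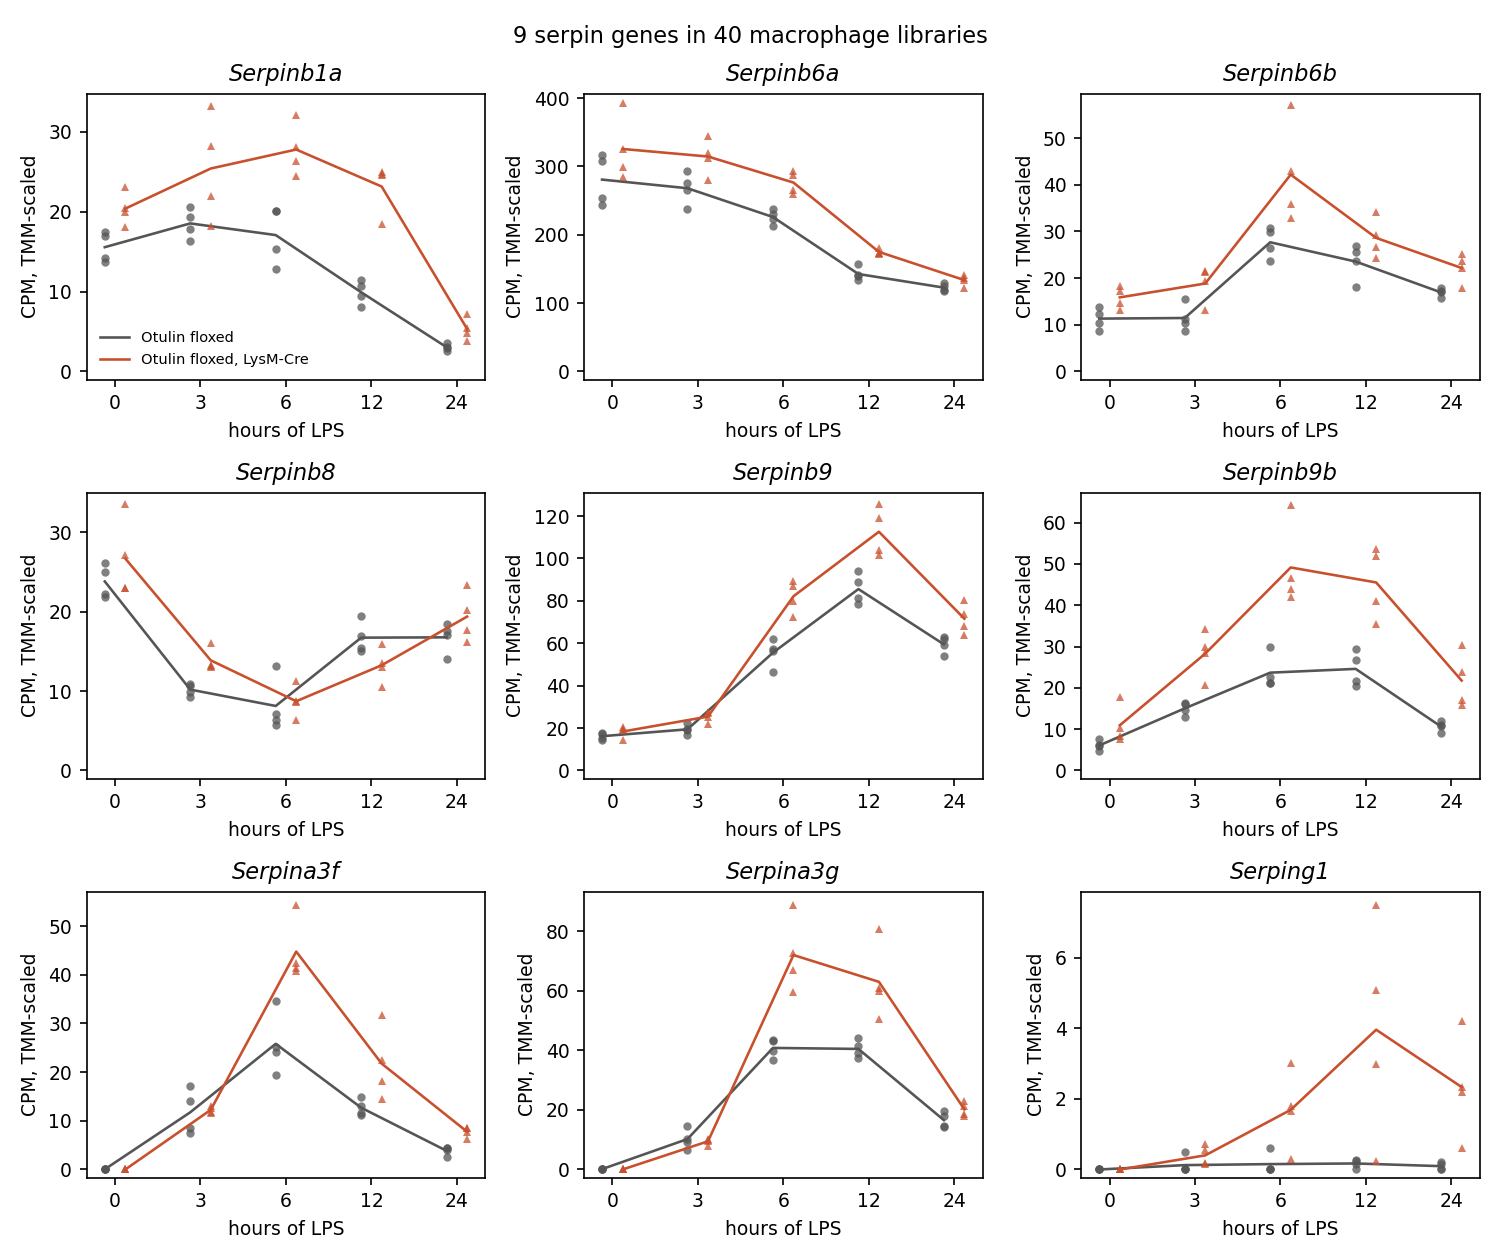
Level of the 9 serpin genes in each library against the hours of LPS (vertical axes in TMM-scaled CPM, each panel with its own range; horizontal positions are evenly spaced). Grey circles are the 4 WT and red triangles the 4 KO libraries of a time and the lines join group means; Serpina3f and Serpina3g start near 0 and peak at 6 h, Serpinb6a falls throughout, and Serping1 stays near 0 in WT.

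LPS moved the genes of the list in both directions. Serpinb9, Serpinb9b and Serpinb6b rose, Serpinb6a and Serpinb8 fell, Serpinb1a fell late, and Serpina3f, Serpina3g and, in KO, Serping1 went from 0 or 1 count a library to more. These last 3 genes passed the filter on low counts only through libraries after LPS, which fixes their direction, so no test against 0 h is given for them and they are left out of the following counts. In WT 8 of the 9 genes passed the filter, all but Serping1, and 6 of them had counts at 0 h. By edgeR's quasi-likelihood test with Benjamini-Hochberg adjustment over all genes (threshold 0.05), 1 of these 6 rose at 3 h, then 3 at each of 6, 12 and 24 h. In the same fit 1 fell at 3 h, 2 at 6 h, 3 at 12 h and 3 at 24 h. Of 12151 genes tested in WT, 26.6%, 31.0%, 32.3% and 34.5% were higher and 28.0%, 37.1%, 35.9% and 35.4% were lower at these times, so that calls in either direction were the rule across the transcriptome. The median log2 change of the 6 genes was 0.12, 0.69, 0.28 and 0.04, beside -0.05, -0.09, -0.07 and -0.02 over all genes.

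In KO all 9 genes passed the filter. Of the same 6 genes 2, 4, 3 and 3 rose at the 4 times, and 1, 2, 2 and 3 fell. Over 12037 genes tested in KO, 22.9%, 28.7%, 30.7% and 32.8% were higher and 25.7%, 36%, 34.0% and 33.0% were lower at 3, 6, 12 and 24 h. The median of the 6 genes was 0.28, 0.92, 0.51 and 0.02 in this genotype, beside -0.04, -0.11, -0.07 and -0.01 over all genes.

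Serpina3g, the cytosolic cathepsin inhibitor, rose from almost no counts. At 0 h the 4 WT libraries held 0, 1, 1 and 1 counts and the 4 KO libraries 0 each. At 6 h the WT libraries were at 43.2, 36.7, 39.9 and 43.4 CPM and the KO libraries at 59.5, 72.7, 66.9 and 88.9 CPM. Every library after LPS stood above every library at 0 h, and at 6 h the lowest KO library was above the highest WT library. Summed over the group, the WT counts of 6 h were 354 times those of 0 h (95% exact interval 121 to 1722, for counting error only). The KO counts were at least 597-fold higher, with 3 counts over the group taken as the floor. The level then held from 6 to 12 h in WT (40.8 ± 3.2 and 40.5 ± 2.9 CPM, SD, n = 4, log2 step -0.01 ± 0.13) and in KO (72.0 ± 12 and 63.0 ± 13 CPM, step -0.19 ± 0.14), steps that edgeR did not call, and fell to 16.6 ± 2.7 and 20.2 ± 2.3 CPM at 24 h. Of the last 300 bases of its transcripts, 20.4% of the 75-base windows also occur in Serpina3h, so its tags could in part be shared with that copy; no other gene of the list shared such a window with another serpin.

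Serpina3f, its neighbour, rose as early and was highest at 6 h. At 0 h it had 1 count in 1 WT library and 0 in the other 7 libraries. The 3 h libraries were at 8.44, 7.43, 14.0 and 17.1 CPM in WT and at 11.8, 11.6, 13.0 and 12.6 CPM in KO, and these ranges overlapped. At 6 h the values were 34.7, 19.4, 24.1 and 25.1 CPM in WT and 42.5, 40.9, 41.3 and 54.4 CPM in KO, without overlap. Against 0 h the WT counts were 682 times higher at 6 h (95% exact interval 122 to 27006, because a single count stands at 0 h), and the KO counts at least 375-fold higher. Unlike Serpina3g it fell between 6 and 12 h in both genotypes, by 1.03 ± 0.21 in WT (log2, adjusted p = 0.000302) and by 1.04 ± 0.18 in KO (adjusted p = 5.95e-05, edgeR). At 24 h it was down to 3.84 ± 0.83 CPM in WT and 7.75 ± 1.1 CPM in KO (SD, n = 4), and the 4 KO libraries were all above the 4 WT libraries.

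Serpinb9, the granzyme B inhibitor, rose later and to the highest level of the induced members. Its libraries at 0 h were at 15.6, 17.3, 14.3 and 17.5 CPM in WT and 19.6, 14.3, 19.2 and 20.4 CPM in KO. At 12 h they were at 88.7, 93.9, 81.3 and 78.4 CPM in WT and 119, 104, 126 and 102 CPM in KO. The 12 h libraries lay above all earlier ones in each genotype, and the KO libraries of 12 h above the WT ones. The log2 change from 0 to 12 h was 2.40 ± 0.10 in WT (adjusted p = 5.88e-17) and 2.61 ± 0.12 in KO (adjusted p = 6.97e-16, edgeR). At 3 h the change was 0.26 ± 0.12 in WT (adjusted p = 0.0651, not called) and 0.47 ± 0.12 in KO (adjusted p = 0.00259). On library totals without TMM the WT value turned to -0.10 (adjusted p = 0.424) and the KO value was 0.14 (adjusted p = 0.306), so neither was called. Each step was called in both genotypes from 3 h on: up to 6 h (1.52 ± 0.11 in WT, 1.68 ± 0.12 in KO), up again to 12 h (0.62 ± 0.09 and 0.46 ± 0.11) and down to 24 h (-0.52 ± 0.09 and -0.64 ± 0.11). The granzymes themselves were hardly present: the mean of Gzmb was at most 0.79 CPM in any group.

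Serpinb9b, the paralog of Serpinb9 on its 3′ side, started lower and levelled off earlier. The WT libraries were at 6.14, 4.62, 5.86 and 7.66 CPM at 0 h, and the KO libraries at 7.51, 8.30, 10.2 and 17.7 CPM, with an overlap of 1 WT library into the KO range. At 3 h WT stood at 13.0, 16.3, 14.8 and 16.0 CPM and KO at 30.0, 20.6, 28.4 and 34.2 CPM. At 6 h WT stood at 30.0, 21.1, 22.6 and 21.1 CPM and KO at 46.5, 43.9, 41.9 and 64.3 CPM. From 3 h on, all KO libraries lay above all WT libraries of the same time. At 12 h WT was at 29.4, 26.9, 21.7 and 20.4 CPM and KO at 35.4, 41.1, 51.9 and 53.7 CPM. At 24 h WT was at 11.9, 10.9, 10.7 and 8.98 CPM and KO at 15.9, 23.7, 17.0 and 30.5 CPM. Within WT the change from 0 h was 1.30 ± 0.17 at 3 h (adjusted p = 2.68e-07), 1.96 ± 0.16 at 6 h (4.2e-11), 2.00 ± 0.16 at 12 h (2.66e-11) and 0.80 ± 0.17 at 24 h (0.000251). Within KO it was 1.39 ± 0.25, 2.17 ± 0.25, 2.06 ± 0.25 and 1.02 ± 0.26, called at each time by edgeR (adjusted p from 1.77e-07 to 0.00177). Between 6 and 12 h no step was called (0.04 ± 0.14 in WT and -0.11 ± 0.23 in KO).

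Serpinb6b showed no called change at 3 h and was higher afterwards. Its group means at 0, 3, 6, 12 and 24 h were 11.3, 11.5, 27.7, 23.6 and 16.9 CPM in WT and 15.9, 18.9, 42.2, 28.6 and 22.2 CPM in KO. At 3 h the change was -0.0035 ± 0.17 in WT and 0.26 ± 0.18 in KO, neither called, and on library totals the KO value turned to -0.08. At 6 h the WT libraries (23.8, 29.8, 30.8 and 26.4 CPM) lay below the KO libraries (42.9, 32.8, 35.9 and 57.1 CPM), and all 8 above every library of 0 h. The change at 6 h was 1.27 ± 0.15 in WT (adjusted p = 4.18e-08) and 1.41 ± 0.17 in KO (adjusted p = 1.03e-07, edgeR). At 24 h it was still called, 0.57 ± 0.16 in WT (adjusted p = 0.00213) and 0.49 ± 0.17 in KO (adjusted p = 0.0163), and on library totals without TMM it was lost in both (0.27, adjusted p = 0.116, and 0.19, adjusted p = 0.341). The KO call was lost also without KO replicate 2 (0.39, adjusted p = 0.068).

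Serpinb6a, the most abundant gene of the list, fell throughout. The WT libraries were at 254, 244, 309 and 316 CPM at 0 h and at 117, 124, 119 and 130 CPM at 24 h. The KO libraries were at 393, 299, 284 and 326 CPM and at 142, 137, 122 and 134 CPM. All libraries of 12 and 24 h lay below all libraries of 0 to 6 h, in both genotypes. The change at 24 h was -1.20 ± 0.08 in WT (adjusted p = 2.48e-12) and -1.28 ± 0.09 in KO (adjusted p = 9.84e-12, edgeR). The fall at 6 h was small, -0.32 ± 0.08 in WT (adjusted p = 0.00138) and -0.25 ± 0.09 in KO (adjusted p = 0.017). The KO call was lost by DESeq2 (-0.17, adjusted p = 0.119) and with its size factors in edgeR (-0.17, adjusted p = 0.1), and without KO replicate 1 (-0.12, adjusted p = 0.314) or KO replicate 2 (-0.20, adjusted p = 0.149). At 3 h no fall was called (-0.07 ± 0.08 in WT, -0.06 ± 0.09 in KO), whereas on library totals alone it was (-0.43, adjusted p = 1.45e-05, and -0.40, adjusted p = 0.000275). The last 300 bases of Serpinb6a overlap exons of Ripk1 and 1110046J04Rik on the opposite strand. How the counting treated strand is not stated, so tags of these genes cannot be told apart with certainty. The overlapping interferon-type patterns printed above for this promoter are the same pair as in Serpina3f, which rose after LPS. The other listed start of Serpinb6a held none of them, and which start these cells use is not known. Any part of these patterns in either course was not tested.

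Serpinb8, the furin inhibitor, fell within 3 h and came part of the way back. Its libraries were at 26.2, 22.3, 21.8 and 25.0 CPM in WT and 33.6, 23.1, 27.2 and 22.9 CPM in KO at 0 h. At 6 h they were at 5.78, 7.13, 6.40 and 13.2 CPM in WT and 11.2, 8.71, 8.61 and 6.35 CPM in KO, so every library of 6 h lay below every library of 0 h and the genotypes overlapped. The change at 6 h was -1.56 ± 0.17 in WT (adjusted p = 1.03e-08) and -1.61 ± 0.18 in KO (adjusted p = 1.61e-08, edgeR). In WT the level rose again from 6 to 12 h (1.06 ± 0.18, adjusted p = 3.83e-05) and then held (-0.0019 ± 0.16). In KO both steps up were called, 0.59 ± 0.19 to 12 h (adjusted p = 0.014, lost without KO replicate 2, 0.54, adjusted p = 0.0888, or KO replicate 4, 0.48, adjusted p = 0.0874) and 0.57 ± 0.17 to 24 h (adjusted p = 0.00996). At 24 h it was still below 0 h, by -0.50 ± 0.15 in WT (adjusted p = 0.00436) and -0.45 ± 0.15 in KO (adjusted p = 0.0122; without KO replicate 3 it was -0.37, adjusted p = 0.0892). Furin, its known target, moved in the opposite sense: group means in WT were 199, 428, 596, 342 and 239 CPM over the 5 times and the change at 6 h was 1.57 ± 0.09 (adjusted p = 1.3e-14).

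Serpinb1a, the inhibitor of neutrophil granule proteases, was at its lowest at 24 h in both genotypes. At 0 h the WT libraries were at 16.9, 13.7, 17.4 and 14.2 CPM and the KO libraries at 20.4, 20.0, 18.1 and 23.1 CPM. At 12 h WT stood at 8.09, 11.4, 9.48 and 10.7 CPM, below all WT libraries of 0 h, and KO at 24.7, 18.4, 24.6 and 25.0 CPM, within or above the KO range of 0 h. At 24 h WT was at 3.56, 3.12, 2.95 and 2.53 CPM and KO at 5.42, 3.77, 4.86 and 7.24 CPM, the lowest values of both courses. In WT the gene fell at 12 h (-0.66 ± 0.15, adjusted p = 0.000494) and at 24 h (-2.35 ± 0.18, adjusted p = 1.73e-11, edgeR). In KO the change at 12 h was 0.16 ± 0.17 (adjusted p = 0.41, not called) and at 24 h it was -1.91 ± 0.19 (adjusted p = 6.29e-09). A KO fall was called between 12 and 24 h (-2.07 ± 0.20, adjusted p = 1.8e-08). Whether the courses differ was not called in the interaction fit given below. In KO a rise was called at 6 h (0.44 ± 0.17, adjusted p = 0.025). On library totals without TMM that value was -0.12 (adjusted p = 0.515), and the WT change of 0.11 ± 0.14 at 6 h, which was not called, became -0.39 (adjusted p = 0.0148), and the KO value at 12 h turned to -0.26 (adjusted p = 0.153). The values at 3 h turned as well, from 0.24 to -0.12 in WT and from 0.30 to -0.04 in KO, so the direction at 3 and 6 h, and at 12 h in KO, rests on the scaling. The KO call was also lost without KO replicate 1 (0.40, adjusted p = 0.109) or KO replicate 3 (0.41, adjusted p = 0.0638). Neutrophil markers, whose sum was lower in KO than in WT, and the granule proteases Elane, Ctsg and Prtn3, at group means of at most 1.38 CPM, were the nearest measures of other cells; their part in the levels of Serpinb1a was not tested. In such bulk libraries fewer cells of a type and less RNA per cell cannot be told apart.

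**Figure D2:**
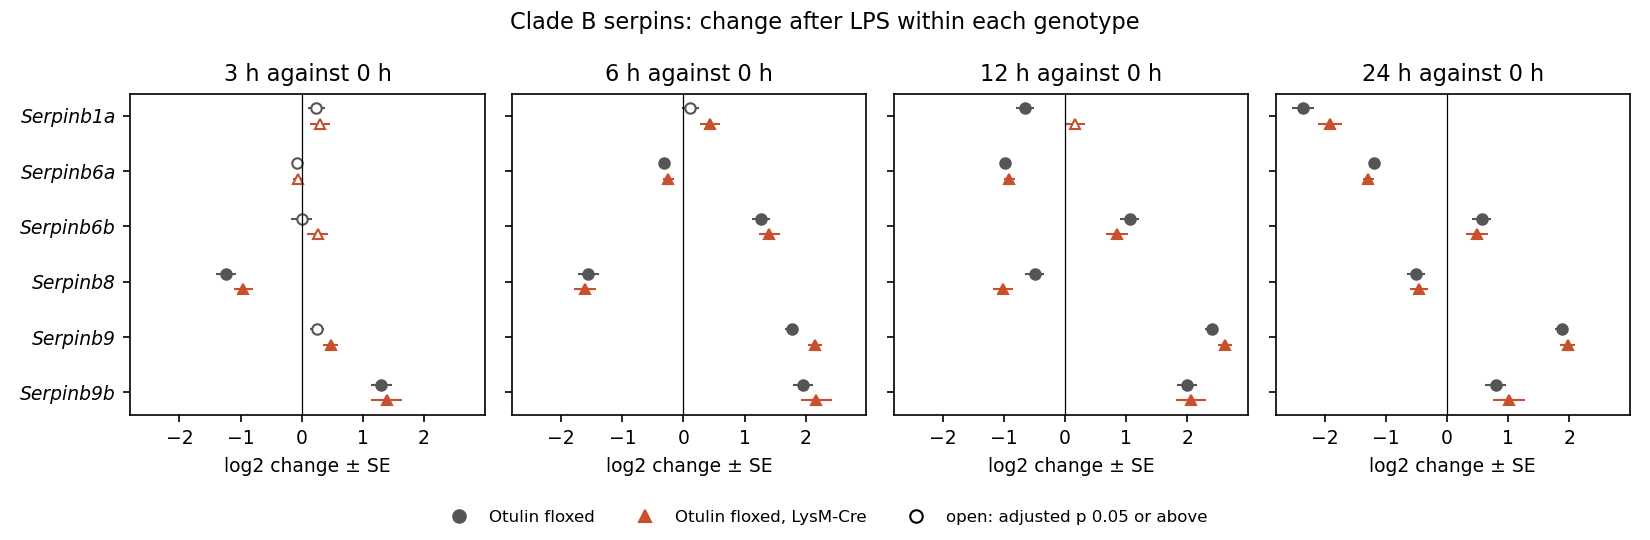
Log2 change of the 6 clade B serpins at 3, 6, 12 and 24 h of LPS against 0 h (horizontal axis, bars are standard errors from edgeR's fit) in WT (grey circles) and KO (red triangles); open symbols did not pass an adjusted p of 0.05. Serpinb6b, Serpinb9 and Serpinb9b lie to the right of 0 at 6 h and later, Serpinb6a and Serpinb8 to the left.

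Between neighbouring times the list moved up until 6 h and down after 12 h. From 3 to 6 h 5 of the 8 genes tested in WT rose and 1 fell (42.3% of all genes were called in either direction), from 6 to 12 h 2 rose and 3 fell (45.6%), and from 12 to 24 h 0 rose and 7 fell (39.6%). In that last step edgeR gave 0 rising genes also at an unadjusted p under 0.05, and DESeq2 gave 0. In KO, with 9 genes tested, the counts were 5 up and 1 down (40.6%), 2 up and 3 down (44.8%) and 1 up, Serpinb8, and 6 down (36.9%). Without KO replicate 4, 3 genes were called from 6 to 12 h in place of 5. The WT steps of Serpinb6a (-0.25 ± 0.08 from 3 to 6 h and -0.22 ± 0.09 from 12 to 24 h) were lost without WT replicate 3 or 4 (adjusted p = 0.066 and 0.0822) and without WT replicate 1, 2 or 3 (0.095, 0.173 and 0.172). The WT step of Serpinb6b from 12 to 24 h (-0.48 ± 0.15) was lost without WT replicate 1, 2 or 3 (adjusted p = 0.0507, 0.0678 and 0.135). A WT fall of Serpinb8 from 3 to 6 h was called without WT replicate 4 (-0.67, adjusted p = 0.00953). In KO the step of Serpinb9b from 3 to 6 h was lost without KO replicate 2 (0.76, adjusted p = 0.0519) and that of Serpinb6b from 6 to 12 h without KO replicate 4 (-0.38, adjusted p = 0.0812). The members rising from 6 to 12 h were Serpinb8 and Serpinb9 in both genotypes.

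Serping1, the C1 inhibitor, had 0 counts in all 8 libraries of 0 h and few after LPS. The WT libraries held 3 counts in all at 3 h, 2 at 6 h, 3 at 12 h and 2 at 24 h. The KO libraries held 3, 2, 1 and 1 counts at 3 h, 8, 9, 1 and 6 at 6 h, 12, 37, 1 and 20 at 12 h, and 12, 19, 3 and 13 at 24 h. Replicates 1, 2 and 4 of KO were above every WT library at 6, 12 and 24 h, while replicate 3, the male one, held 6 counts over its 5 libraries, near the 1 to 4 counts of the WT replicates. The ratio of KO to WT counts was 2.10 at 3 h (95% exact interval 0.48 to 12.6), 13.1 at 6 h (3.24 to 114), 24.2 at 12 h (7.96 to 120) and 22.3 at 24 h (5.84 to 189), intervals that cover counting error and not the spread between replicates. Within KO the counts at 12 h were at least 34.7-fold higher than at 0 h. In WT the gene did not pass the filter and was not tested. The proteases that the C1 inhibitor blocks were mostly low as well, apart from C1ra, which in WT rose from 20.6 to 118 CPM at 12 h (2.51 ± 0.11, adjusted p = 1.41e-16). The 0 counts at 0 h allow up to 3 counts over the 4 libraries of a group, so a low level of Serping1 before LPS was not detectable at this depth.

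**Figure D3:**
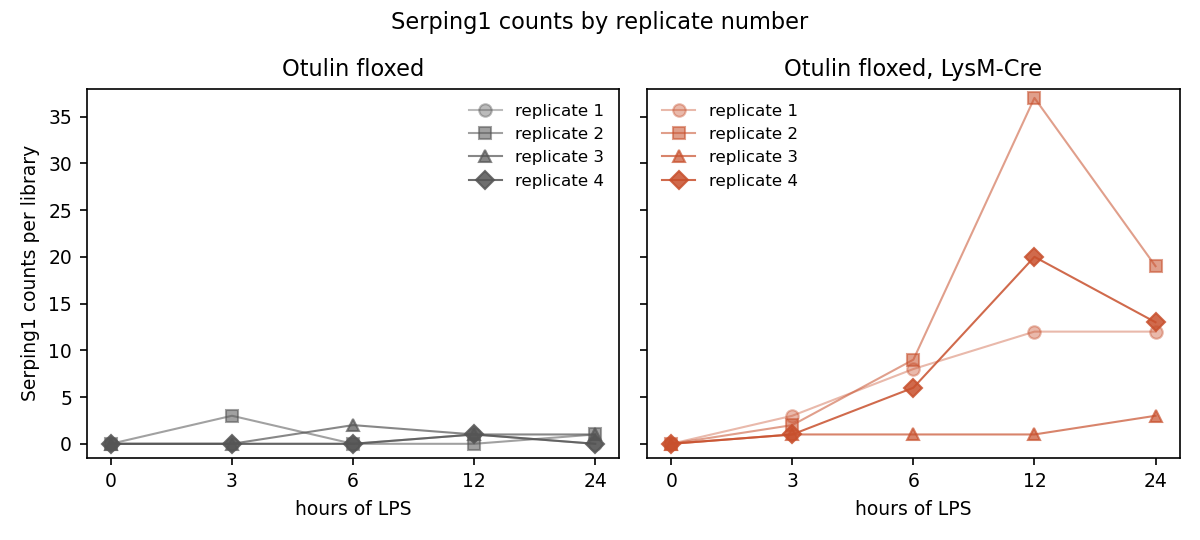
Serping1 counts per library (vertical axis) against the hours of LPS (evenly spaced) for the 4 replicates of WT (left) and KO (right), each line joining libraries of the same replicate number. KO replicates 1, 2 and 4 reach 12 to 37 counts at 12 h, whereas KO replicate 3 and all WT replicates stay at 3 counts or fewer.

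Between the genotypes most members were higher in KO, which is how 2 of them came to be named, so the following values describe and do not test. Serpinb9b was the most even: KO minus WT was 0.82 ± 0.26 at 0 h, 0.92 ± 0.15 at 3 h, 1.03 ± 0.16 at 6 h, 0.88 ± 0.16 at 12 h and 1.04 ± 0.20 at 24 h (log2 ± SE). At 0 h the libraries of the genotypes overlapped, and KO replicate 4 was the highest at 17.7 CPM. For Serpinb1a the difference was 0.38 ± 0.12, 0.45 ± 0.17, 0.71 ± 0.16, 1.20 ± 0.16 and 0.82 ± 0.27 at the same times. It was widest at 12 h, where a fall from 0 h was called in WT and not in KO. Serpina3f and Serpina3g showed no gap at 3 h (0.11 ± 0.22 and -0.09 ± 0.20). From 6 h on the gap was 0.77 ± 0.16, 0.75 ± 0.22 and 0.99 ± 0.23 for Serpina3f, and 0.80 ± 0.12, 0.61 ± 0.14 and 0.27 ± 0.14 for Serpina3g, which closed again. Serpinb9 was higher by 0.16 ± 0.13 at 0 h and by 0.55 ± 0.11 at 6 h, and Serpinb6b by 0.74 ± 0.18 at 3 h and 0.60 ± 0.16 at 6 h. Serpinb6a was higher by 0.12 ± 0.08 at 24 h to 0.28 ± 0.09 at 12 h. Serpinb8 changed sides, with 0.45 ± 0.14 at 3 h and -0.36 ± 0.17 at 12 h.

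**Figure D4:**
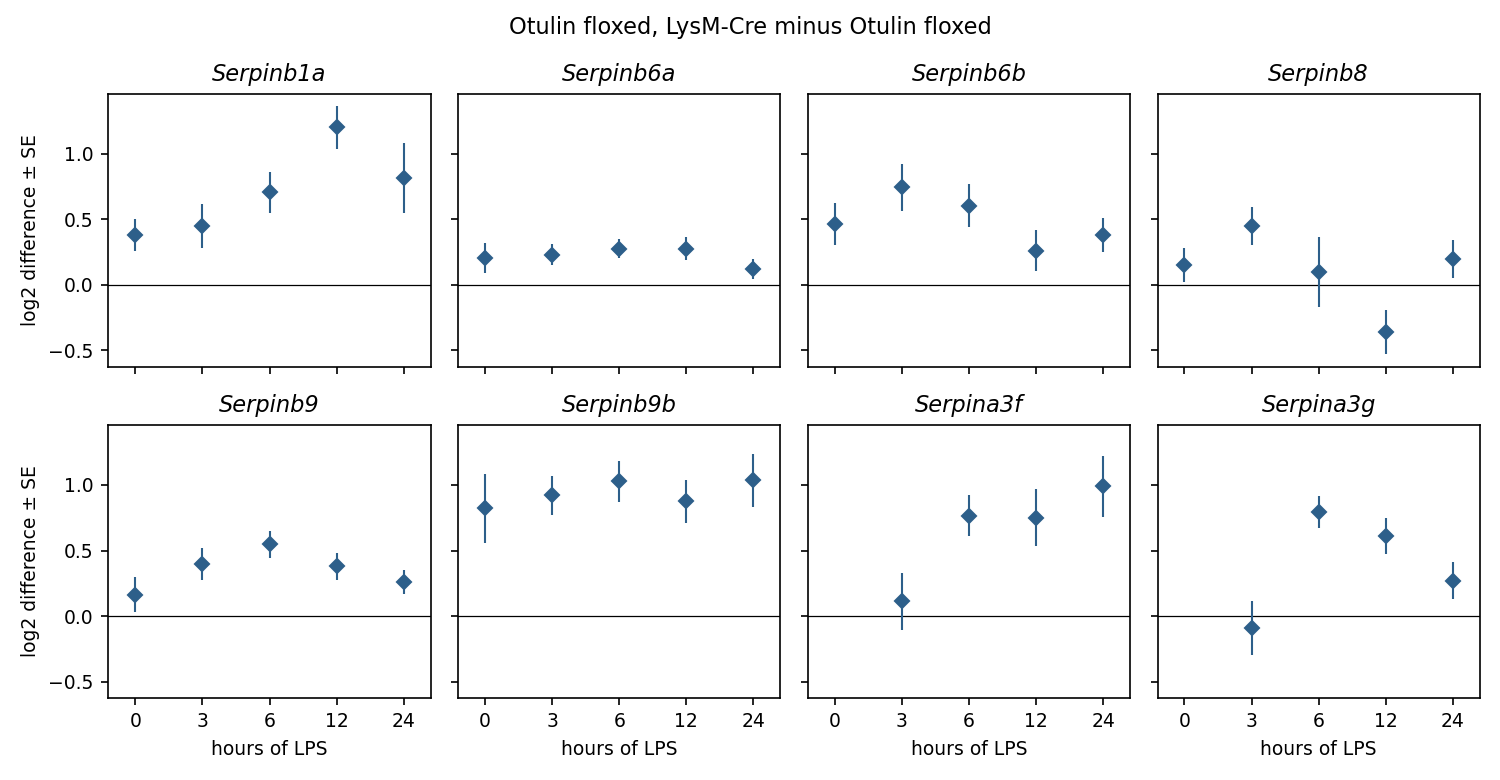
Log2 difference of KO minus WT (vertical axis, bars are standard errors from edgeR's fit of the 8 libraries of a time) against the hours of LPS (evenly spaced) for the 8 serpins that could be fitted; Serpina3f and Serpina3g have no value at 0 h. Serpinb9b stays near 1 throughout, Serpinb1a is widest at 12 h, and Serpinb8 crosses 0.

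The genotype comparison called 0 of the 6 members tested at 0 h (0.0% of 11734 genes were called), 1 of 8 at 3 h (0.689% of 11035), 5 of 8 at 6 h (1.01% of 10518), 1 of 8 at 12 h (0.0464% of 10783) and 0 of 8 at 24 h (0.0809% of 11122). The genes called were Serpinb9b at 3 h, Serpinb1a, Serpinb9, Serpinb9b, Serpina3f and Serpina3g at 6 h, and Serpinb1a at 12 h, all higher in KO. At 0 h, 3 members had an unadjusted p under 0.05 in edgeR, beside 900 of 11734 genes, and DESeq2 called 0 members and 25 genes in all. At 24 h 5 members had such a p, beside 830 of 11122 genes. DESeq2 called 2 members there and 56 genes in all. Its 2 members included Serping1, which edgeR did not test. The 5 calls of 6 h became 3 on library totals without TMM and 2 to 4 when 1 library was left out: 2 without KO 1 or KO 2 and 3 without KO 3, KO 4 or WT 2. Over all genes 88 were higher and 18 lower at 6 h, and 46 and 29 on library totals. The single call of 3 h became 2 without KO 2 or WT 4. That of 12 h was lost without KO 1, WT 2, WT 3 or WT 4 and became 2 without KO 3, and at 24 h 1 gene was called without KO 3. The gene added without KO 3 was Serping1 at both times. It had not passed the filter with all libraries and passed it here through the KO libraries, which fixes its direction. Since the rule used this contrast, nothing is read from these counts.

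All 4 KO libraries lay above all 4 WT libraries for Serpinb1a at 0 h (2.63% of all genes did so at that time), for Serpinb8 and Serpinb9b at 3 h (3.26%), for every tested member but Serpinb8 at 6 h (7 of 8, 5.07%), for Serpinb1a, Serpinb6a, Serpinb9, Serpinb9b and Serpina3g at 12 h (3.28%) and for Serpinb1a, Serpinb9, Serpinb9b and Serpina3f at 24 h (2.43%). No member had all KO libraries below all WT libraries at any of the 5 times. Over all genes 279 of 11734, 327 of 11035, 289 of 10518, 188 of 10783 and 220 of 11122 did so. At such low shares nothing is read from 0 among so few members. The median difference of the tested members was 0.29, 0.42, 0.66, 0.50 and 0.33 over the 5 times, beside 0.00, 0.01, -0.01, -0.00 and 0.00 over all genes.

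The difference between the KO and the WT response to LPS was fitted as an interaction of genotype and time against 0 h. It called 0 of 8 members at each later time, with 0.0% of all genes called at 3 h, 0.0% at 6 h, 0.0% at 12 h and 0.00818% at 24 h. At an unadjusted p under 0.05 edgeR had 1, 2, 3 and 1 members at 3, 6, 12 and 24 h. Over all genes 342 of 12165, 529 of 12096, 396 of 12164 and 474 of 12226 had such a p. Serpina3g was among these members at each time and was the only one at 3 and 24 h. It passed the filter only through libraries after LPS, so nothing is read from its part in these counts. DESeq2 called 0 members at each time. For Serpinb1a the KO response exceeded the WT response by 0.08 ± 0.22 at 3 h, 0.33 ± 0.20 at 6 h, 0.82 ± 0.20 at 12 h and 0.44 ± 0.26 at 24 h. For Serpinb9b the same quantity was 0.11 ± 0.32, 0.22 ± 0.34, 0.06 ± 0.34 and 0.21 ± 0.36, about as small as its standard errors. For Serpinb8 it was -0.52 ± 0.21 at 12 h. The fitted values of Serpina3f and Serpina3g rest on 0 to 3 counts at 0 h and are not given.

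The courses of the members fell into a few shapes. Over the 10 group means of log2 CPM, which share their libraries and scaling, Serpina3f and Serpina3g correlated most closely (Pearson r = 0.95), followed by Serpinb9b with Serpina3f (0.88) and Serpinb9 with Serpina3g (0.86). Serpinb8 ran opposite to Serpina3f (r = -0.86) and Serpina3g (-0.73), and Serpinb6a opposite to Serpinb9 (-0.70). Among the other genes with at least 5 CPM in some group, the most similar to Serpina3g were Casp1, the inflammatory caspase (r = 0.997), Stx4a (0.995) and the antigen peptide transporter subunit Tap1 (0.995). Those most similar to Serpina3f were the adenosine receptor gene Adora2b (0.991), Snx10 (0.990) and Tmco3 (0.990). Serpinb9 ran most like Csf2rb, the shared receptor chain for GM-CSF and related cytokines (0.987), Rab43 (0.987) and Cdk14 (0.986). Serpinb9b ran most like the myosin light chain Myl6 (0.980), Cstb, the cystatin B inhibitor of cathepsins (0.968), and Vma21 (0.966). For Serpinb1a the nearest genes were the fibronectin gene Fn1 (0.982), the glycolytic enolase Eno1 (0.981) and Ifi27 (0.971). For Serpinb6a they were the lipid desaturase Scd1 (0.993), Gmfb (0.993) and Rhoj (0.992), and for Serpinb8 Dnmt3aos (0.987), Acad12 (0.983) and Cebpg (0.975). Serpinb6b was nearest to Gtf2a1 (0.971), Lamtor5 (0.948) and Ubtd1 (0.948). Serping1, on few counts, was nearest to the glycolytic gene Tpi1 (0.908), the complement gene C2 (0.901) and Rnh1 (0.897). Taken over the 40 single libraries, 0 or 1 of the 3 nearest genes of each member were the same, so the names are descriptions of these group means.

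The rest of the serpin family was mostly silent. Of 59 other serpin genes 33 had 0 counts in all libraries, 50 stayed below a mean of 1 CPM in every group and 5 reached 5 CPM. The list could be compared with these in the LPS fits for 6 genes: in WT 2 were higher and 2 lower at 24 h, and in KO 2 were higher and 1 lower. Over all genes 34.5% were higher and 35.4% lower in WT at that time, and 32.8% and 33.0% in KO. Serpinb2, a neighbour of Serpinb8, rose in WT from 0.273 to 14.3 CPM at 3 h (5.57 ± 0.59, adjusted p = 7.08e-08, edgeR) and was at 7.10 CPM at 24 h. Between KO and WT 4, 4, 5, 6 and 5 of these serpins could be tested at 0, 3, 6, 12 and 24 h, and edgeR called 0 at each. Over all genes 0.0%, 0.689%, 1.01%, 0.0464% and 0.0809% were called, so 0 calls among so few genes cannot set these serpins apart. At most 1 of them had an unadjusted p under 0.05 at a time, and DESeq2 called 0.

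The proteases that serpins are known to meet were followed in the same fits. The counts at 24 h stand beside 34.5% of all genes higher and 35.4% lower in WT, and 32.8% and 33.0% in KO. Of a list of 14 genes, made up of granule serine proteases, the perforin gene Prf1 and Furin, only Furin could be tested. Of 9 cysteine cathepsins tested, 6 were higher and 2 (Ctsf and Ctsk) lower in WT at 24 h, and 5 higher and 1 lower in KO. Ctsc, the dipeptidyl peptidase that activates granule proteases, rose from 219 to 993 CPM in WT (2.18 ± 0.08, adjusted p = 7.14e-18, edgeR), Ctsh from 91.5 to 355 CPM, Ctsz from 383 to 916 CPM and Ctss, abundant in macrophages, from 1999 to 3986 CPM. Of 5 complement and contact proteases tested in WT 4 rose and 1, the urokinase gene Plau, fell from 220 to 39.1 CPM at 24 h (-2.49 ± 0.17, adjusted p = 5.99e-11); C1ra (1.87 ± 0.11) and C1rb (1.70 ± 0.38) were among those that rose.

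Of 9 caspases, cell-death and inflammatory proteases that some serpins also bind, 6 rose and 0 fell in WT at 24 h by edgeR (0 fell also at an unadjusted p under 0.05 and by DESeq2). Over all genes 34.5% rose and 35.4% fell in that comparison. Casp4, the cytosolic sensor of LPS, rose from 8.64 to 89.6 CPM (3.37 ± 0.13, adjusted p = 8.39e-18), Casp1 from 95.6 to 442 CPM and Casp8 from 37.5 to 92.9 CPM. Of 9 protease inhibitors of other families 7 rose and 1, Timp2, fell in WT at 24 h, beside the same shares over all genes. The leukocyte protease inhibitor Slpi rose from 1.11 to 22.3 CPM (4.28 ± 0.31, adjusted p = 1.02e-11), Cst7, cystatin F, from 8.71 to 151 CPM (4.12 ± 0.12), Timp1 from 0.658 to 7.00 CPM (3.37 ± 0.58) and Wfdc21 from 0.685 to 5.35 CPM (2.89 ± 0.37). Between KO and WT only Ctsk and Ctsl (higher in KO) and Wfdc21 (lower in KO) were called by edgeR among these protease and inhibitor lists. All 3 calls were at 6 h, when 1.01% of all genes were called.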

How the data were processed

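RNA from 40 macrophage libraries was profiled by 3′ tag sequencing (QuantSeq FWD). Raw expected counts for each Ensembl identifier, in 1 table, are what the authors deposited. The submitters' processing notes list STAR 2.7.10a, RSEM 1.3.3, cutadapt 3.7, FastQC 0.11.9 and UMI-tools 1.1.2 with the build GRCm39. Whether molecular identifiers were collapsed is not given in the sources used here. All deposited values (100.0%) were whole numbers, so rounding changed none. Of 57010 identifiers 52029 were paired with a symbol.

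Counts were fitted with edgeR 4.0.16 in R 4.3.3 (filterByExpr, minimum count 10, TMM, robust quasi-likelihood F-test, Benjamini-Hochberg adjustment over all genes tested, threshold 0.05, prior count 0.125). Time was tested against 0 h and between neighbouring times within the 20 libraries of a genotype, KO and WT were compared in the 8 libraries of a time, and the interaction was fitted over the 16 libraries of 0 h and 1 later time. Standard errors are the absolute log2 value divided by the square root of F. CPM values use TMM factors over the 40 libraries. Ratios of summed counts have exact 95% binomial intervals, with 3 counts over a group as the floor. All 60 replicate pairs differed by more than sampling noise (chi-square per degree of freedom 2.34 to 18.9), so each library counts once. The code was tested on simulated data with known fold changes.

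The members and all gene lists were chosen with earlier results of these data known. Named beside the 9 members are Otulin and Lyz2 in ranges, the 3 genes with the highest correlation of group means (at least 5 CPM in 1 group), and up to 4 called genes of each protease, inhibitor or serpin list with the largest change at 24 h in WT; some genes that this rule names are not reported here, and other names mark counts of 5 or fewer or were chosen after their values were seen. Alternatives were DESeq2 1.42.0, its size factors in edgeR, no filter, 1 fit of all libraries, each library left out, the replicate number as a block, female animals only, and, added after seeing the data, library totals without TMM.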

Additional observations from a re-analysis of the deposited data

Results flagged for a closer look

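In 9 of 86 groups of 4 libraries 1 library stood apart from the other 3 by a gap above Dixon's 95% critical value for the group's range; about 1 group in 20 would do so by chance. These were, in CPM, Serpinb1a in KO at 12 h (replicate 2, 18.4, below the others), Serpinb6a in KO at 12 h (replicate 4, 181), Serpinb8 in KO at 3 h (replicate 1, 16.0), Serpinb9b in WT at 6 h (replicate 1, 30.0) and Serpina3f in KO at 6 h (replicate 4, 54.4), each of the last 4 above the others. The remaining 4 rest on 0 to 3 counts: Serpina3f in WT at 0 h (replicate 4, 0.156), Serpina3g in WT at 0 h (replicate 1, at 0.0), Serping1 in WT at 3 h (replicate 2, 0.495) and Serping1 in WT at 6 h (replicate 3, 0.61). For 0 members did all KO libraries move one way from 0 h and all WT libraries the other.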

How the results depend on the processing

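On library totals without TMM, 11 of the members' 119 log2 values within a genotype changed sign, and 2 of these were called on one of the scalings: Serpinb1a at 6 h against 0 h, at -0.39 in WT and -0.12 in KO. Under the other settings 14 of 1190 values changed sign, none of them called. For the counts of members called, leaving out 1 library gave 3 to 6 for the KO step from 6 to 12 h (5 with all), 1 to 2 for KO against WT at 3 h (1), 2 to 4 at 6 h (5), 0 to 2 at 12 h (1) and 0 to 1 at 24 h (0). Between KO and WT, no filter on low counts gave 1 call at 0 h, 2 at 3 h, 5 at 12 h and 3 at 24 h. DESeq2 gave 4 at 12 h and 2 at 24 h, where it called 64 and 56 genes in all, beside 5 and 9 in the main fit. With 1 fit of all 40 libraries there were 5 at 12 h and 2 at 24 h. Library totals gave 3 at 6 h, with 46 genes higher and 29 lower in all. For no filter and 1 fit of all libraries the calls over all genes are not given, so nothing is read from these member counts. At 12 and 24 h the counts under no filter, DESeq2 and 1 fit of all libraries include Serping1, which the main genotype fit did not test. Its WT libraries held 3 counts in all at 12 h and 2 at 24 h. The highest counts at 12 and 24 h with 1 library left out include it too. The cause of the differences between settings was not tested. With the replicate block 0 members were called at 12 h and the Serpinb1a call of 6 h was lost (0.71, adjusted p = 0.0865). Same-numbered libraries deviated together only in part. Across genes r ran from -0.0879 to 0.308 within a genotype (13 of 32 above 0.1). Between genotypes it ran from -0.233 to 0.133 (1 of 20 above 0.1). The labels do not say whether a number marks the same animal over time, and Xist and Ddx3y kept the same sex for each number at all 5 times. A pairing within a genotype is therefore not excluded by these values. The main fits over time took the libraries as independent, and the replicate block is an alternative to that. The genes alike to a member changed with the 40 libraries in place of the group means. In the whole 300-base windows 3 genes in place of 2 held the PU.1 core and the other motif counts were the same. Genes below about 5 CPM rest on some 20 counts a library, which limits Serping1, early Serpina3f and Serpina3g, and late Serpinb1a.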

Other observations

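Serpinf1, which encodes the secreted protein PEDF and lies outside the list, ran against the pattern of the members, with group means of 1.55, 3.01, 1.85, 1.32 and 0.638 CPM in WT and 0.328, 0.496, 0.367, 0.351 and 0.254 CPM in KO over the 5 times; it was noticed after its values were seen, and at these levels it rests on few counts. Serpinb1b, a neighbour of Serpinb9b, had means of 0.541, 0.604, 1.37, 2.21 and 1.01 CPM in WT and 1.05, 1.00, 3.16, 3.43 and 1.94 CPM in KO. Between the genotypes Serpinb1b passed the filter on low counts at 12 h alone, where edgeR did not call it (0.61 ± 0.34, adjusted p = 0.728), and Serpinf1 passed it at none of the 5 times.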
